A study of Homo sapiens with 30 samples.

Results

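The AP-1 transcription factors were followed here as 8 genes, chosen by symbol: FOS, FOSB, FOSL1 and FOSL2 of the FOS family, JUN, JUNB and JUND of the JUN family, and ATF3. The table of raw read counts holds 60664 genes, of which 40609 carry a symbol, and each of the 8 symbols stood in 1 row. AP-1 is a dimer of proteins with a basic region that contacts DNA and a leucine zipper that holds the partners together. JUN proteins can pair with one another, whereas FOS proteins typically bind DNA with a JUN partner, and ATF3 pairs with JUN proteins as well as with itself. Several of these genes are immediate-early genes: stress and growth factors switch on their transcription within minutes through MAP kinases acting on factors already bound at the promoter. Their mRNAs are short-lived, and AU-rich elements in the 3′ UTR are known to speed their decay. TIA1, the protein the study altered, binds U-rich RNA and helps to build stress granules, the cytoplasmic assemblies of untranslated mRNA that form under arsenite, an oxidative stressor.

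RNA was sequenced in 30 libraries, in 10 groups of 3, from 2 derivatives of Flp-In T-REx HEK293, a human embryonic kidney cell line with tetracycline-inducible expression. Each derivative, FT293-GFP-TIA1aWT or FT293-GFP-TIA1aWDM, is stably transfected with TIA1a fused to GFP. The protein is wild-type in the first (WT) and carries the mutation of Welander distal myopathy, a late-onset muscle disease, in the second (WDM). Cytosol was sampled in 3 states per line: untreated, with tetracycline, and with tetracycline plus 0.5 mM sodium arsenite for 60 minutes. TIA1 stress granules, enriched by centrifugation and then captured by GFP, were sampled in the last 2 of these states only, so the granule libraries labelled as tetracycline alone come from cells without arsenite. All groups carry a GFP-TIA1a transgene, and no group of the parental line entered. The labels do not say whether a derivative is 1 clone, whether replicates are separate cultures, or what the tetracycline dose was. The p-values therefore measure the spread between these libraries, which may be technical.

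Total counts ran from 7971585 to 18884843 in cytosol and from 5906167 to 27419145 in granules. Libraries of a group differed beyond counting noise in every pair (chi-square per degree of freedom 1.63 to 40.7), so none looked like a repeated deposit. The row of TIA1 itself held 3 counts over all 30 libraries, so it could not check the line labels. All 5 epithelial markers (KRT8, KRT18, KRT19, CDH1 and EPCAM) were detected, and so were the mesenchymal markers VIM and CDH2, while COL1A2 and DCN were at or near 0. Blood cell markers summed to at most 2.15 CPM (a gene's counts per 1000000 counts of the library), with HBB at 0 throughout. A list of 5 nuclear long noncoding RNAs was read as a sign of nuclear RNA. They summed to 267 to 984 CPM in cytosol libraries and 2340 to 3700 CPM in granule libraries, with MEG3 at or near 0.

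All 8 genes lie on GRCh38, with coordinates that are identical in the table and in GENCODE v44. FOS lies at chr14:75278826-75282230, FOSB at chr19:45467995-45475179 and FOSL2 at chr2:28392448-28417317, all on the plus strand, and FOSL1 at chr11:65892049-65900573 on the minus strand. JUN (chr1:58776845-58784048, minus strand), JUNB (chr19:12791486-12793315, plus strand) and JUND (chr19:18279694-18281622, minus strand) have 1 exon each, whereas the canonical transcripts of the FOS family and of ATF3 (chr1:212565334-212620777, plus strand) have 4. Of the exon sequence of JUNB, 14.2% lies opposite exons of HOOK2 (chr19:12763003-12872740, minus strand). FOSB lies within the span of ERCC1 (chr19:45407334-45478828, minus strand) but opposite none of its exons. The library kit marks strand, but the strand setting of the counting is not given in the sources used here, so reads of JUNB and HOOK2 over the shared stretch may have been counted for either gene.

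The promoters of 5 members are shown: FOS, FOSB, JUN and JUNB as examples of the 7 genes that were called higher with arsenite in both fractions, and FOSL2, which was called higher with it in granules but not in cytosol. Each runs from 140 bases before the RefSeq start to 20 after it, on the gene's strand (RefSeq, GRCh38.p14: FOS chr14:75278688-75278847, FOSB chr19:45467856-45468015, JUN chr1:58784028-58784187, JUNB chr19:12791346-12791505, FOSL2 chr2:28392718-28392877). Capitals mark matches to the motifs named after the sequences.
FOS: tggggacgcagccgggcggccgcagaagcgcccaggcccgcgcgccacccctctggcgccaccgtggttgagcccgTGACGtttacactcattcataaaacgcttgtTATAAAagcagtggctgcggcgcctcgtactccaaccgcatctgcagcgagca
FOSB: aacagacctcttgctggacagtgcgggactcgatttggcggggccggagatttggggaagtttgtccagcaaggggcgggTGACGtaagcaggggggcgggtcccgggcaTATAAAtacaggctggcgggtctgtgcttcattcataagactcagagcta
JUN: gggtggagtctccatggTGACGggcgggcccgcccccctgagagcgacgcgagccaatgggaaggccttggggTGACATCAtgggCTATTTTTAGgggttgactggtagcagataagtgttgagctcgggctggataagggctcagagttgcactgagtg
JUNB: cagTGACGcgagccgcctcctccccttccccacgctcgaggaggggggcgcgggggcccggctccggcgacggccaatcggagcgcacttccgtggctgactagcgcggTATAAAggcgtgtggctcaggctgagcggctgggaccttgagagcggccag
FOSL2: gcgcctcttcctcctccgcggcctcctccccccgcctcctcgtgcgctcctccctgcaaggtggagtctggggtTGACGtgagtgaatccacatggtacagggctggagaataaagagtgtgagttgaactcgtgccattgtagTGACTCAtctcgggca

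A set of 7 motifs was searched in windows of 250 bases before to 50 after the start. The TATA box (TATAAA) was searched on the gene's strand only and the others on both strands. These were the AP-1 site (TGANTCA), the cyclic AMP response element or CRE (TGACGTCA) and a CRE-like site (TGACNTCA, which contains the CRE). The CRE core (TGACG, also within the CRE and, as its other strand, CGTCA), the CArG box that SRF binds and the MEF2 site completed the set. FOS and FOSB share a layout, with a CRE core at positions -64 and -60 from the start and a TATA box at -33 and -30. JUNB has its TATA box at -31 and its CRE core farther out, at -137. JUN lacks TATAAA in the window and holds the CRE-like TGACATCA at -67, a MEF2 site at -55 and a CRE core at -123. In FOSL2, TGACTCA, an AP-1 site, begins at position 5 within the transcript, beside CRE cores at -66 and, before the printed stretch, -201, and no TATAAA. Of the members not printed, JUND has a full CRE, TGACGTCA, at -200 and a further CRE core at -86. ATF3, with 2 windows, has the CRE-like TGACATCA at -123 of one and TATAAA at -230 of the other, and FOSL1 was not matched. The FOSL2 window and the ATF3 window with TATAAA lie wholly inside the GENCODE span of the gene. Bases before their RefSeq start are therefore within the annotated gene. No window of a matched member held a CArG box, and sequence more than 250 bases before the start was not searched. Over all 34943 RefSeq promoters of the same length, TATAAA is present in 7.35%, the CRE core in 24.5% and the AP-1 site in 7.72%. The CRE-like site is present in 7.71%, the full CRE in 1.84%, the MEF2 site in 3.0% and the CArG box in 1.3%. These matches describe letters only, and the data hold no measure of binding at them.

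The AU-rich pentamer ATTTA was counted in the 3′ UTRs of the canonical transcripts, since mRNA decay and TIA1 binding are known to act through such sequence. FOS has 5 in 806 bases, or 6.2 per kb, JUNB 2 in 500 bases, or 4.0 per kb, and FOSL2 9 in 4869 bases, or 1.85 per kb. The other 5 members have 1 to 3 each. Per kb these are 2.46 in ATF3, 2.34 in JUN, 1.38 in FOSB, 1.34 in JUND and 1.19 in FOSL1. The median over 13518 coding genes was 1.71 per kb. A link between these densities and the granule levels was not tested. A stretch of 30 bases of FOS (chr14:75282047-75282076) and of FOSL2 (chr2:28416342-28416371), each with a pair of pentamers in capitals, shows how the repeats sit in the member that changed most with arsenite in cytosol and the member most enriched in granules with arsenite.
FOS: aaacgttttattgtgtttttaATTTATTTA
FOSL2: agaagaaattgacATTTAttttattATTTA

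JUN was the most abundant AP-1 mRNA at rest, and the FOS family was scarce. To compare genes, CPM was divided by the length of the union of each gene's annotated exons, giving CPM per kb. For ATF3 this union is 3998 bases against 1940 in the canonical transcript, and for FOS 3186 against 2104. For JUND both are 1929 bases. The order of genes below JUN depends on this choice of length, and shares by canonical length were not computed. In untreated WT cytosol the 8 genes summed to 98.7 ± 11.8 CPM per kb (SD, n = 3), of which JUN made up 66.3% ± 0.4, JUND 13.1% ± 1.4, ATF3 9.85% ± 0.64 and JUNB 7.29% ± 0.56. FOSL2 made up 1.67%, FOSL1 0.825%, FOS 0.816% and FOSB 0.144%. Untreated WDM cytosol had the same order apart from FOS and FOSL1, with a sum of 105 ± 4.93 CPM per kb and a JUN share of 64.3%. Ranges of FOS and FOSL1 overlapped in both lines.

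**Figure D1:**
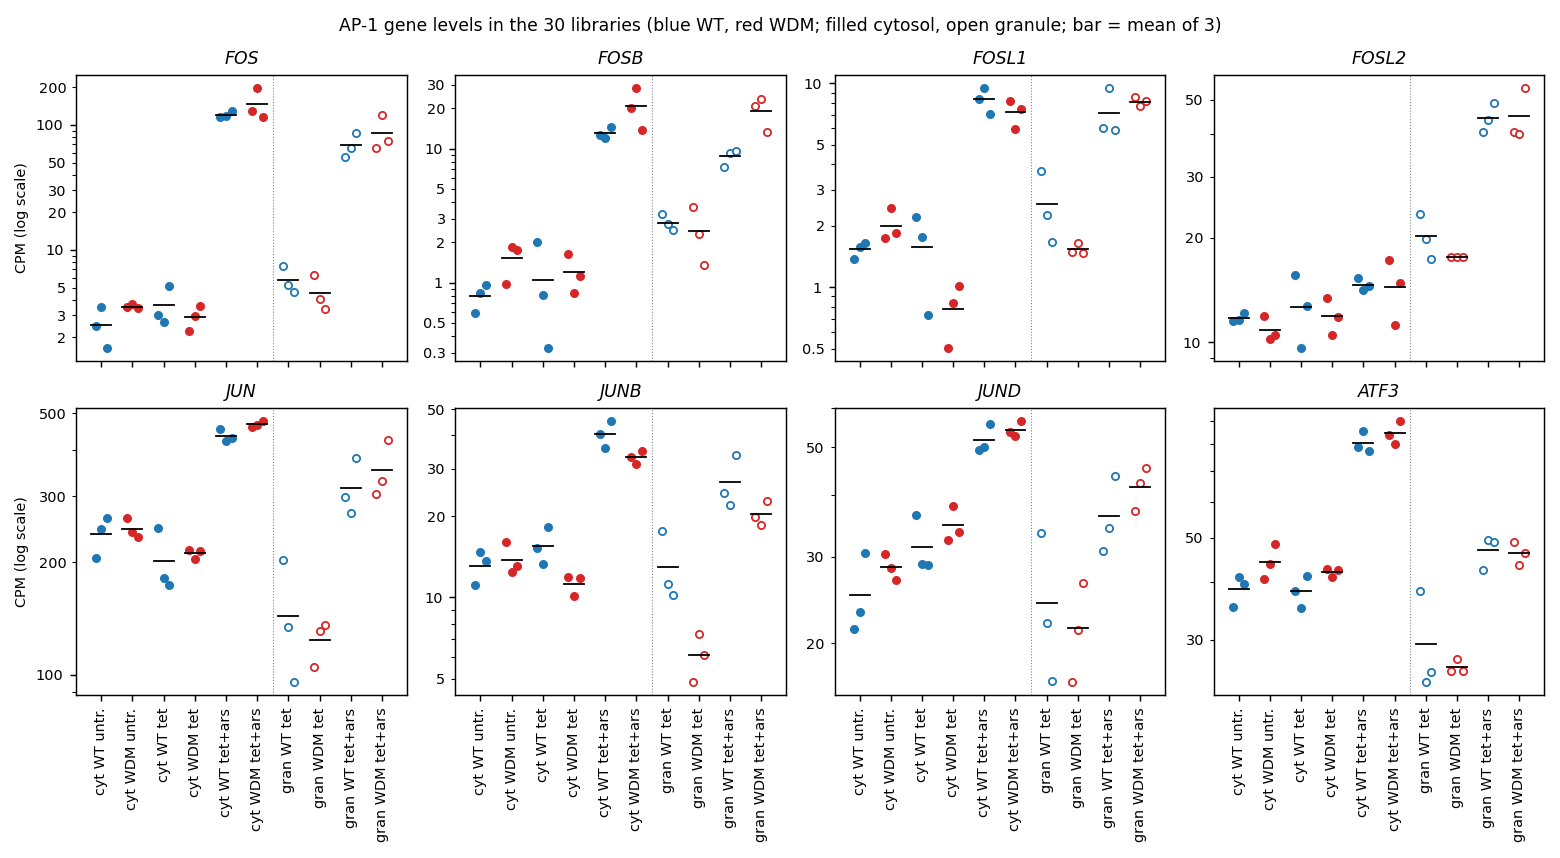
CPM of the 8 AP-1 genes in each library (vertical log axes that differ between panels) by group on the horizontal axis; cyt is cytosol, gran is granule, untr. untreated, tet tetracycline, ars arsenite. Points are libraries and bars are means of 3; the arsenite groups of FOS, FOSB and FOSL1 lie above all others, and FOSL2 separates by fraction.

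Arsenite raised 7 of the 8 AP-1 mRNAs in the cytosol of both lines, FOSL2 being the exception, and FOS the furthest. Against tetracycline alone, 7 of 8 were called higher in WT (adjusted p under 0.05, adjusted over all genes tested) where 13.7% of 16670 genes were, and 7 of 8 in WDM where 14.1% were. None was called lower, against 15.4% of all genes in WT and 14.8% in WDM. Their median log2 fold change was 1.12 in WT and 1.26 in WDM, beside -0.02 and 0.00 over all genes. The arsenite and tetracycline libraries did not overlap for 7 of 8 members in each line, whereas 38.8% of all genes did not overlap in WT and 34.9% in WDM.

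FOS, the prototype immediate-early gene and JUN's best known partner, stood at 3.03, 2.66 and 5.19 CPM in WT cytosol with tetracycline and at 116, 118 and 129 CPM with arsenite. In WDM it stood at 2.26, 2.96 and 3.55 CPM and then at 130, 199 and 115 CPM. Every arsenite library was far above every other cytosol library, and WDM replicate 2 was the highest of all. FOS rose 30.4-fold in WT (log2 4.93, SE 0.26, adjusted p = 6.52e-09) and 45.9-fold in WDM (log2 5.52, SE 0.27, adjusted p = 3.01e-09).

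FOSB, a FOS relative that is likewise an immediate-early gene, was near the detection limit before arsenite. It had 1.99, 0.807 and 0.324 CPM in WT with tetracycline, from 27, 10 and 4 counts, and 12.7, 12.0 and 14.4 CPM with arsenite. In WDM the values were 1.63, 0.832 and 1.11 CPM and then 20.0, 28.5 and 13.7 CPM. The groups did not overlap in either line, and the WDM arsenite libraries were the more scattered. FOSB rose 11.1-fold in WT (log2 3.48, SE 0.37) and 17.1-fold in WDM (log2 4.09, SE 0.36). Without WT tetracycline replicate 1, the highest of its group, the WT value was log2 4.34.

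FOSL1, which encodes the FOS-related protein FRA1, was at 2.21, 1.77 and 0.73 CPM in WT and 0.502, 0.832 and 1.01 CPM in WDM with tetracycline. With arsenite it reached 8.4, 9.52 and 7.1 CPM in WT and 8.2, 5.97 and 7.45 CPM in WDM. It rose 4.78-fold in WT (log2 2.26, SE 0.24) and 8.01-fold in WDM (log2 3.00, SE 0.27). The arsenite libraries of the lines overlapped, and so did their tetracycline libraries, whose mean was 1.57 CPM in WT and 0.78 CPM in WDM.

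FOSL2, which encodes FRA2, was at 15.6, 9.6 and 12.7 CPM in WT with tetracycline and 15.3, 14.1 and 14.5 CPM with arsenite. In WDM it was at 13.4, 10.5 and 11.8 CPM and then 17.3, 11.2 and 14.8 CPM. The groups overlapped in both lines. The log2 fold change was 0.08 in WT (95% interval -0.24 to 0.39, adjusted p = 0.734) and 0.19 in WDM (-0.13 to 0.51, adjusted p = 0.359), so a rise of the size seen for any other member in the same line lay outside the interval.

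JUN, the main partner of the FOS proteins, went from 247, 181 and 174 CPM to 454, 421 and 430 CPM in WT and from 216, 204 and 214 to 460, 465 and 476 CPM in WDM. It rose 1.99-fold in WT and 2.08-fold in WDM (log2 0.99 and 1.05, SE 0.10 each). JUNB, a JUN relative that can restrain JUN, went from 15.2, 13.3 and 18.2 to 40.3, 35.9 and 45.1 CPM in WT and from 11.9, 10.1 and 11.8 to 33.3, 31.2 and 35.0 CPM in WDM. JUNB rose 2.37-fold and 2.77-fold (log2 1.24 and 1.47). None of these groups overlapped.

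JUND, the JUN protein usually expressed in resting cells, rose least, 1.5-fold in WT and 1.47-fold in WDM (log2 0.59 and 0.56, SE 0.11 each). Its libraries moved from 28.8 to 36.4 CPM up to 49.4 to 55.7 CPM in WT, and from 32.4 to 38.1 CPM up to 52.7 to 56.5 CPM in WDM. ATF3, a stress-induced factor that often represses its targets, rose 1.92-fold in WT and 1.88-fold in WDM (log2 0.94 and 0.91, SE 0.09 each). ATF3 ranged from 35.2 to 41.3 CPM before and from 77.2 to 85.4 CPM after arsenite in WT, and from 41.2 to 42.7 and from 80.1 to 89.7 CPM in WDM.

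Against untreated cytosol, which shares the arsenite libraries, 7 of 8 were again called higher in each line, where 15.2% of all genes were in WT and 19.0% in WDM. FOS was 45.1-fold higher in WT and 40.2-fold higher in WDM. FOSL2 had a log2 fold change of 0.23 in WT (adjusted p = 0.277) and 0.34 in WDM (adjusted p = 0.0845). In WDM it was called without arsenite replicate 2 (log2 0.48, adjusted p = 0.0175) and with the replicate number as a block (adjusted p = 0.036). In bulk RNA, more transcript per cell and more cells with the transcript cannot be told apart. Nuclear noncoding RNAs summed to 267 to 614 CPM in WT tetracycline and 634 to 682 CPM in WT arsenite cytosol, and to 388 to 745 and 669 to 984 CPM in WDM. Blood cell markers summed to 0.295 to 0.811 CPM before and 1.37 to 1.97 CPM after arsenite over both lines, with HBB and CD3E at 0. CD14, the 1 of 5 that was tested, was called higher in each line, and the sum was not split by gene. The part of either list in these results was not tested.

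With arsenite the 8 genes summed to 236 CPM per kb in WT cytosol and 252 in WDM, up from 93.6 and 96.2 with tetracycline alone. The make-up of this pool shifted toward FOS, from 1.24% to 16.1% in WT and from 0.953% to 18.3% in WDM. JUN went from 58.8% to 50.9% in WT and from 60.6% to 51.1% in WDM and stayed the largest part. JUND went from 17.4% to 11.4% in WT and from 18.7% to 11.2% in WDM. These are shares of mRNA level per kb of the exon union, not of protein, and they depend on that choice of length.

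**Figure D2:**
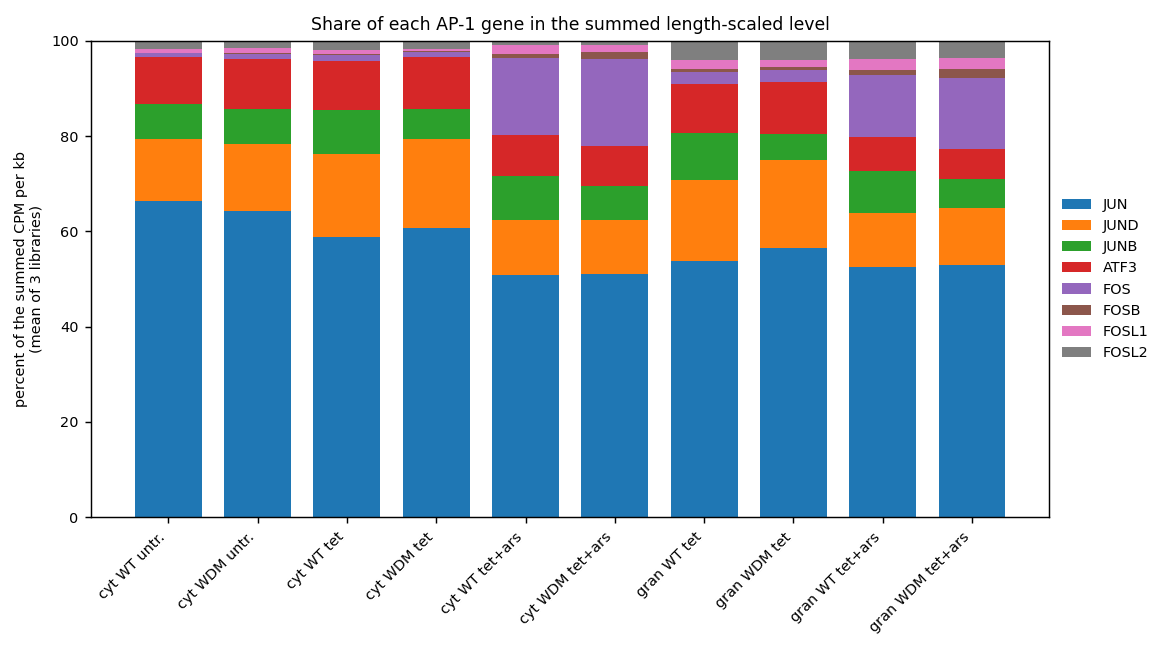
Share of each AP-1 gene in the summed CPM per kb of the 8 genes (vertical axis, percent, mean of 3 libraries) in the 10 groups; cyt is cytosol and gran is granule. FOS takes 16.1% and 18.3% in the arsenite cytosol groups and 0.816% to 1.24% in the other cytosol groups.

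In the granule fraction all 8 AP-1 mRNAs were called higher with arsenite in both lines, FOSL2 included. In WT, 16.5% of 18366 genes were called higher and 14.1% lower. In WDM, 18.7% were called higher and 17.7% lower. The members' median log2 fold change was 1.16 in WT and 1.55 in WDM, beside -0.03 and 0.01 over all genes. The groups did not overlap for 7 of 8 members in WT and 8 of 8 in WDM, where 40.8% and 46.0% of all genes did not.

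FOS in WT granules was at 7.45, 5.23 and 4.61 CPM with tetracycline and 55.0, 65.5 and 86.0 CPM with arsenite. In WDM granules it was at 6.25, 4.08 and 3.37 CPM and then 64.9, 120 and 73.8 CPM. Replicate 2 of WDM with arsenite was again the highest, as in cytosol. FOS was 12.6-fold higher in WT (log2 3.66, SE 0.26, adjusted p = 4.77e-10) and 18.6-fold higher in WDM (log2 4.22, SE 0.26, adjusted p = 2.05e-11).

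FOSL2 was at 23.4, 19.9 and 17.4 CPM in WT granules with tetracycline and 40.4, 43.8 and 48.9 CPM with arsenite. In WDM granules all 3 libraries were at 17.6 CPM, from 178, 268 and 287 counts, and arsenite took them to 40.5, 39.8 and 54.3 CPM. Both shifts were far outside the spread of libraries. FOSL2 rose 2.24-fold in WT (log2 1.17, SE 0.18, adjusted p = 3.11e-05) and 2.44-fold in WDM (log2 1.29, SE 0.18, adjusted p = 4.63e-06).

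FOSB rose 3.24-fold in WT granules and 7.78-fold in WDM granules (log2 1.70 and 2.96, SE 0.27 each). Its values were 3.22, 2.73 and 2.46 CPM and then 7.32, 9.25 and 9.62 CPM in WT, and 3.67, 2.3 and 1.35 CPM and then 20.6, 23.4 and 13.3 CPM in WDM. FOSL1 rose 3.09-fold and 5.02-fold (log2 1.63 and 2.33). Both genes thus had the larger fold in WDM, and the difference between lines is tested below.

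JUN rose 2.23-fold in WT granules and 2.71-fold in WDM granules, JUNB 2.15-fold and 3.16-fold, and ATF3 1.64-fold and 1.69-fold. JUND rose 1.55-fold in WT (log2 0.63, SE 0.22, adjusted p = 0.0275) and 1.84-fold in WDM (log2 0.88, SE 0.22, adjusted p = 0.00219). In WT, JUND's tetracycline libraries (33.5, 22.0 and 16.8 CPM) overlapped its arsenite libraries (30.8, 34.3 and 43.7 CPM), the only such case among the members in granules. Its WT call was lost without tetracycline replicate 2 or 3 (log2 0.62 and 0.38, adjusted p = 0.0739 and 0.256) or arsenite replicate 1 or 3 (0.71 and 0.46, adjusted p = 0.0524 and 0.17).

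**Figure D3:**
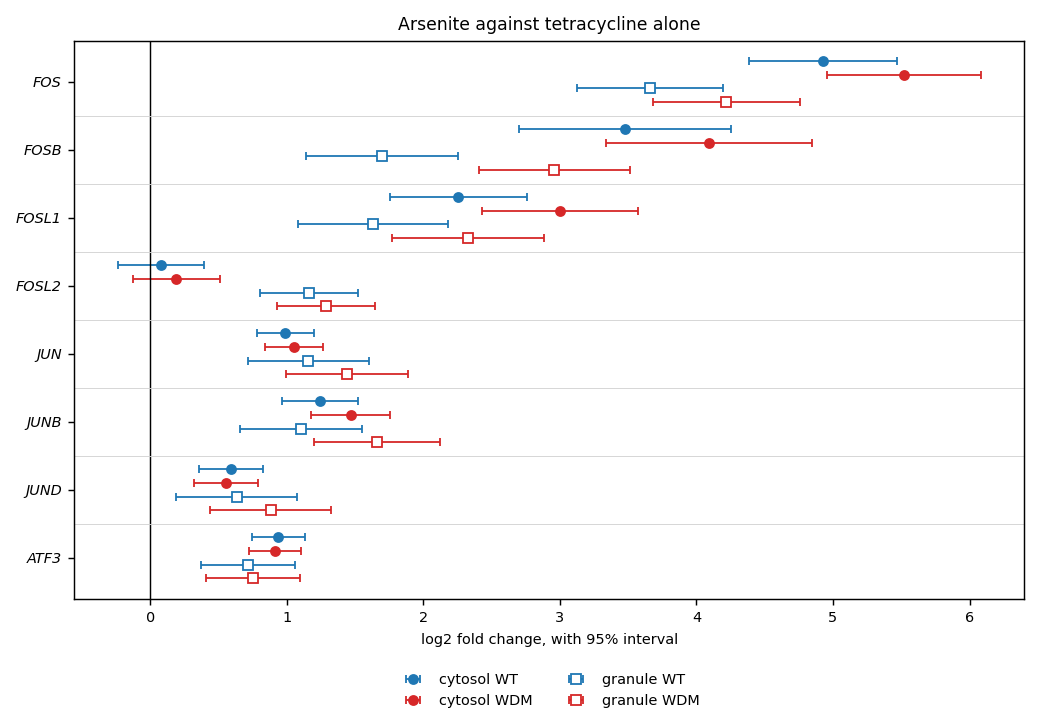
Log2 fold change of arsenite with tetracycline against tetracycline alone (horizontal axis) for the 8 genes, with 95% intervals from the fit; blue is WT, red WDM, filled circles cytosol, open squares granules. FOSL2 sits at 0.08 and 0.19 in cytosol with intervals that include 0, and at 1.17 and 1.29 in granules.

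The AP-1 mRNAs did not share 1 distribution between granule and cytosol. With tetracycline alone, FOSB and FOSL2 were higher in granules in both lines, whereas JUN, JUND and ATF3 were lower in both. In WT, 2 of 8 members were called higher and 3 lower, where 39.5% of 18141 genes were higher and 36.2% lower. In WDM, 3 were higher and 4 lower, where 35.8% and 35.3% of all genes were. The members' shares were therefore close to those of genes in general, and what differed was which member went which way.

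FOSL2 was 1.53-fold higher in WT granules (20.2 ± 3.02 against 12.7 ± 3.03 CPM, SD, n = 3, log2 0.62, SE 0.17) and 1.49-fold higher in WDM (17.6 ± 0.045 against 11.9 ± 1.45 CPM, log2 0.57, SE 0.17). FOSB was 2.49-fold higher in WT (2.8 ± 0.382 against 1.04 ± 0.859 CPM, log2 1.31, SE 0.43) and 2.02-fold higher in WDM (log2 1.01, SE 0.44). FOSL1 was called in WDM (log2 0.89, adjusted p = 0.0321) but not in WT (log2 0.50, adjusted p = 0.15). FOS had log2 0.55 in both lines, with intervals of -0.14 to 1.25 in WT and -0.17 to 1.27 in WDM, and was not called.

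On the other side, JUN was lower in granules by log2 -0.53 (SE 0.19) in WT and -0.77 (SE 0.19) in WDM, and JUND by -0.46 and -0.68. ATF3 was lower by log2 -0.45 (SE 0.13) in WT and -0.69 (SE 0.13) in WDM. JUNB was called in WDM (log2 -0.86, SE 0.21) and not in WT (log2 -0.35, adjusted p = 0.0995). By edgeR the difference between lines was called for 0 of 8 members (0 at an unadjusted p under 0.05), where 0.00551% of all genes were, and was log2 -0.51 for JUNB (95% interval -1.09 to 0.07).

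Single libraries decided several of these calls. In WT, JUN and JUND were lost without cytosol replicate 1 (log2 -0.43 and -0.42) or granule replicate 3 (-0.30 and -0.25), leaving 3 calls without the former, and JUND also without granule replicate 2 (-0.45). Without granule replicate 1, JUN and JUND were at -0.82 and -0.72 and JUNB was called at -0.57, and FOSL1 was called without granule replicate 3 (0.80). Without cytosol replicate 3, FOSB was lost (log2 0.90, adjusted p = 0.0556) and FOS called (0.90, adjusted p = 0.0267), whereas FOSB was at 2.15 without cytosol replicate 1. In WDM, FOSB was lost without cytosol replicate 2 or 3 or granule replicate 1 or 2 (log2 0.84, 0.94, 0.70 and 1.00), and FOSL1 without cytosol replicate 1 or 2 or granule replicate 2 or 3 (0.73, 0.88, 0.82 and 0.90). In a fit of only these WT groups, JUN, JUND and ATF3 were not called (adjusted p = 0.105, 0.115 and 0.0632). FOSL2 kept its call in each of these fits.

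With arsenite, FOSL2 was the member enriched in granules. It was 3.04-fold higher there in WT (44.4 ± 4.3 against 14.6 ± 0.592 CPM, SD, n = 3, log2 1.60, SE 0.17, adjusted p = 1.26e-09) and 2.99-fold higher in WDM (44.8 ± 8.17 against 14.4 ± 3.1 CPM, log2 1.58, SE 0.16, adjusted p = 1.44e-09). No granule library overlapped a cytosol library. In each line 1 of 8 members was called higher, where 35.0% of all genes were in WT and 36.3% in WDM, and 5 of 8 lower, where 35.5% and 35.7% were.

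FOS was lower in granules than in cytosol with arsenite, by log2 -0.81 (SE 0.24, adjusted p = 0.00435) in WT and -0.84 (SE 0.24, adjusted p = 0.00306) in WDM. The WT libraries did not overlap, while in WDM the highest granule library (120 CPM) exceeded the lowest cytosol library (115 CPM). Taken by replicate number, FOS in WDM was lower in granules each time (64.9 against 130, 120 against 199 and 73.8 against 115 CPM). ATF3 was lower by log2 -0.77 in WT and -0.93 in WDM (SE 0.13 each), JUNB by -0.59 and -0.76, JUND by -0.51 and -0.45, and JUN by -0.46 and -0.47. FOSB (-0.58, adjusted p = 0.0693, and -0.19) and FOSL1 (-0.23 and 0.11) were not called. FOSB in WT was called with the replicate number as a block (adjusted p = 0.0457) and in a fit of these groups alone (adjusted p = 0.00263).

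The calls of JUN and JUND depended on single libraries and on settings. Without 1 of cytosol replicate 1, granule replicate 1 or granule replicate 2, JUN was not called in WT (log2 -0.45, -0.45 and -0.33), nor was JUND without granule replicate 1 or 2 (-0.44 each). In WDM, JUN was not called without cytosol replicate 2 or 3 or granule replicate 1 or 2 (log2 -0.45, -0.46, -0.34 and -0.45), nor was JUND without cytosol replicate 2 or 3 or granule replicate 1 (-0.44, -0.42 and -0.33). JUN in WT was also not called with RLE factors, without the low-count filter or by DESeq2 (adjusted p = 0.0595, 0.0745 and 0.0579), nor JUN in WDM with library size alone (adjusted p = 0.0516). JUND in WDM was not called with library size alone, without the filter or by DESeq2 (adjusted p = 0.0558, 0.0706 and 0.055). FOS in WDM stayed called without cytosol replicate 2, at log2 -0.54.

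**Figure D4:**
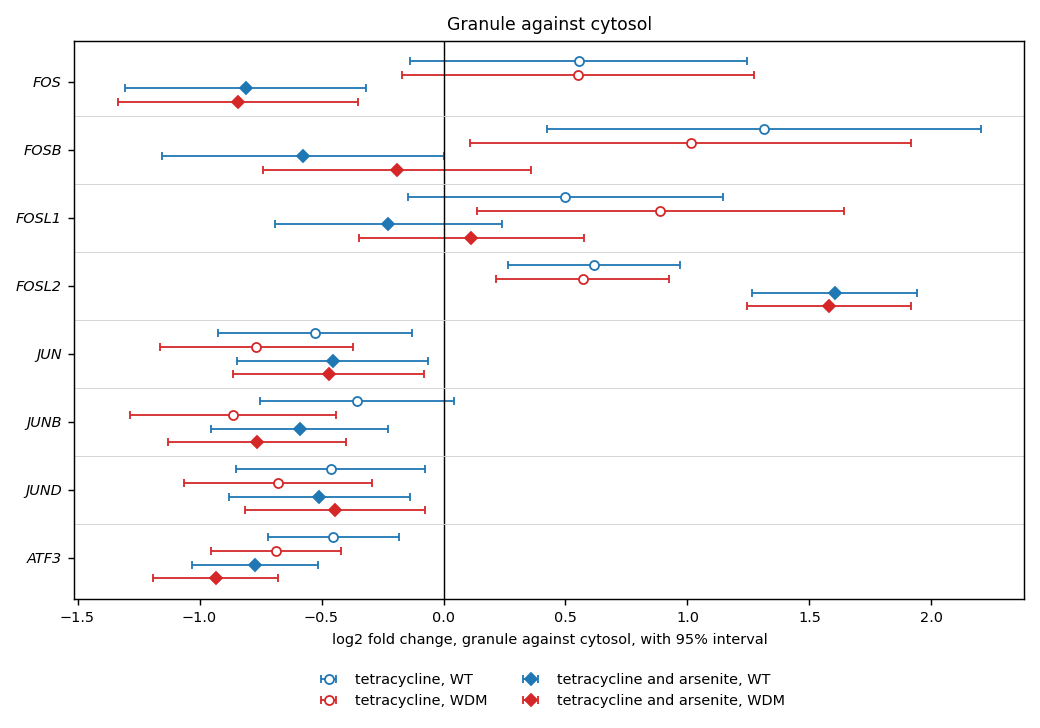
Log2 fold change of granule against cytosol (horizontal axis) for the 8 genes with 95% intervals from the fit; open circles are tetracycline alone, filled diamonds tetracycline with arsenite, blue WT, red WDM. Between the conditions FOS, FOSB and FOSL1 shift to the left, FOSL2 shifts to the right from 0.62 and 0.57 to 1.60 and 1.58, and the other 4 stay below 0.

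The change of granule enrichment with arsenite, tested as an interaction, separated FOSL2 from FOS. Over all 18141 genes its median was -0.21 in WT and -0.17 in WDM, and values are to be read against that shift. FOSL2 gained log2 0.99 (SE 0.24, adjusted p = 0.00242) in WT and 1.01 (SE 0.24, adjusted p = 0.00275) in WDM. FOS shifted the other way, at log2 -1.36 (SE 0.41, adjusted p = 0.0141) in WT and -1.39 (SE 0.42, adjusted p = 0.0185) in WDM. With tetracycline alone FOS had not been called enriched in granules in either line. FOSB was at -1.89 (SE 0.52, adjusted p = 0.00692) in WT and -1.21 (SE 0.52, adjusted p = 0.0895) in WDM. In all, 3 of 8 members were called in WT, where 31.4% of genes were, and 2 of 8 in WDM, where 24.2% were. The other members ranged from -0.73 to 0.07 in WT and from -0.78 to 0.30 in WDM.

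The FOS call in WDM was lost without granule tetracycline replicate 1 (log2 -1.19, adjusted p = 0.0839), and FOSB in WT stood at -2.75 without cytosol tetracycline replicate 1, while FOSB in WDM was called without cytosol arsenite replicate 3 (-1.41) or granule tetracycline replicate 3 (-1.50), without the low-count filter (-1.10, adjusted p = 0.0292) and by DESeq2 (-1.20, adjusted p = 0.0438). Nuclear noncoding RNAs stood far higher in granule libraries. Of the 4 tested, 4 were called higher in WT granules with tetracycline (median log2 2.72) and 3 in WDM (2.18), and with arsenite 3 in each line (1.46 and 1.25). Of all genes 39.5% in WT and 35.8% in WDM were called higher with tetracycline, and 35.0% and 36.3% with arsenite. Epithelial markers were lower in granules, 5 of 5 with tetracycline and 4 of 5 with arsenite in each line, where 35.3% to 36.2% of all genes were. They summed to 86.3 to 157 CPM there against 315 to 570 CPM in cytosol. The part of either list in the enrichment of any AP-1 mRNA was not tested.

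Between the WDM and WT lines at most 1 of 8 members was called in any group. So few genes cannot show whether AP-1 mRNAs differed less or more often than genes in general. In untreated cytosol 0 of 8 were called, with 0 at an unadjusted p under 0.05, where 9.78% of genes were called by edgeR. In tetracycline-treated cytosol 1 of 8 was called, where 12.6% of genes were, and with arsenite 0 of 8 (2 at an unadjusted p under 0.05), where 10.4% were. In granules 1 of 8 was called with tetracycline, where 5.55% of genes were, and 1 of 8 with arsenite, where 7.95% were. FOSB in arsenite cytosol (log2 0.67, adjusted p = 0.112) was called without WDM replicate 3 (0.89, adjusted p = 0.0268), and FOSL1 in tetracycline cytosol (log2 -0.97, adjusted p = 0.0653) without WT replicate 3 (-1.28, adjusted p = 0.00873).

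JUNB was the member called in tetracycline-treated cells, lower in WDM in both fractions. In cytosol it stood at 15.2, 13.3 and 18.2 CPM in WT and 11.9, 10.1 and 11.8 CPM in WDM. In granules it stood at 17.6, 11.2 and 10.2 CPM in WT and 4.86, 7.31 and 6.12 CPM in WDM. The lines did not overlap in either fraction. The log2 difference was -0.52 in cytosol (SE 0.14, adjusted p = 0.0202) and -1.04 in granules (SE 0.23, adjusted p = 0.00606).

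Without tetracycline JUNB was at log2 0.04 (95% interval -0.26 to 0.34), WDM against WT. With arsenite it was at log2 -0.30 in cytosol (adjusted p = 0.155) and -0.48 in granules (adjusted p = 0.149). HOOK2, whose exons lie opposite part of JUNB, was also lower in WDM cytosol, by log2 -0.67 untreated, -0.41 with tetracycline (adjusted p = 0.0316) and -0.66 with arsenite, and was at -0.48 in tetracycline granules (adjusted p = 0.151), and its part in the JUNB values was not tested. The cytosol call of JUNB was lost without WT replicate 3 (log2 -0.37, adjusted p = 0.156) or WDM replicate 2 or 3 (-0.47 and -0.54) and in a fit of these groups alone (adjusted p = 0.115), and the granule call without WT replicate 1 (-0.80, adjusted p = 0.0513).

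FOSB was the member called with arsenite, higher in WDM granules. It stood at 7.32, 9.25 and 9.62 CPM in WT and 20.6, 23.4 and 13.3 CPM in WDM, with no overlap. The log2 difference was 1.04 (SE 0.23, adjusted p = 0.00407), or 2.06-fold, and was 0.97 (adjusted p = 0.0615) without WT replicate 1. In cytosol the same contrast gave log2 0.67, and the libraries of the lines overlapped. Epithelial markers moved with the line too, with 3 of 5 lower in WDM cytosol in each of the 3 states: they summed to 479 to 570 CPM in WT cytosol and 315 to 469 CPM in WDM. Nuclear noncoding RNAs summed to 406 to 482 CPM in untreated WT and 699 to 766 CPM in untreated WDM cytosol, with 0 of 4 called. The part of these in the line differences was not tested.

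**Figure D5:**
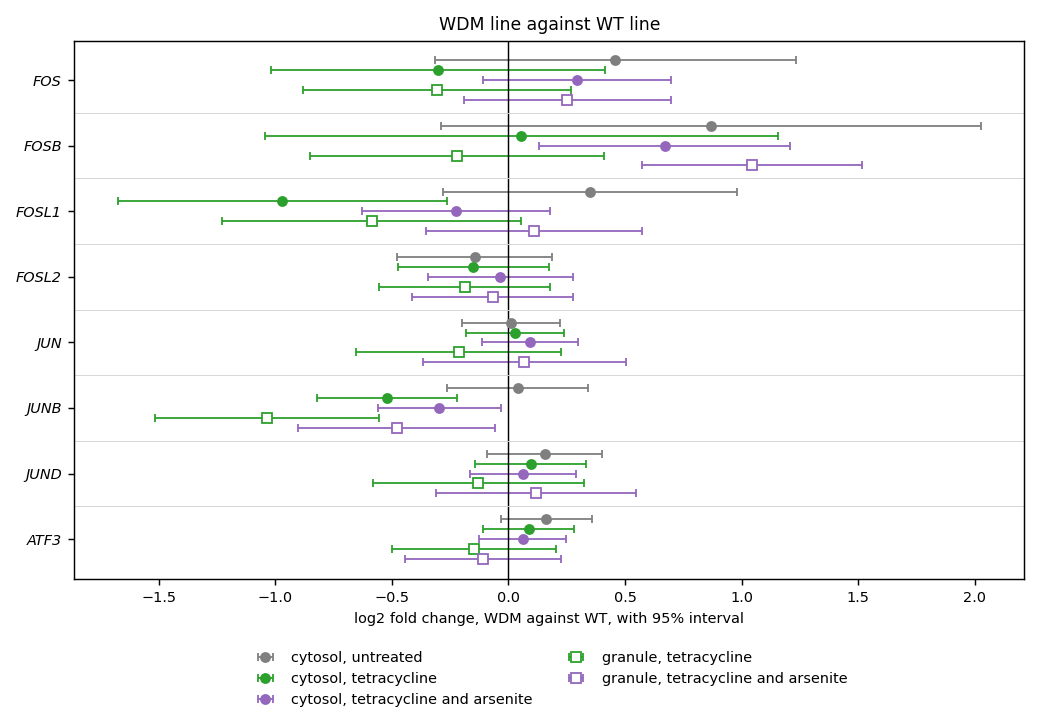
Log2 fold change of WDM against WT (horizontal axis) for the 8 genes with 95% intervals from the fit; filled circles are cytosol, open squares granules, grey untreated, green tetracycline, purple tetracycline with arsenite. JUNB lies left of 0 with tetracycline at -0.52 and -1.04, FOSB lies right of 0 in arsenite granules at 1.04, and most other intervals include 0.

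The arsenite response itself was not shown to differ between the lines for any member. In cytosol 0 of 8 interactions were called (0 at an unadjusted p under 0.05), where 0.0% of genes were, and in granules 0 of 8 (1 at an unadjusted p under 0.05), where 0.0% were, all by edgeR. DESeq2 also called 0 of 8 in each. FOSB in granules came nearest, with a response larger by log2 1.26 in WDM (SE 0.38, unadjusted p = 0.00275, adjusted p = 0.254). For FOS the difference was 0.60 in cytosol (95% interval -0.23 to 1.42) and 0.56 in granules (-0.17 to 1.29), and for JUN 0.06 (-0.23 to 0.36) and 0.28 (-0.34 to 0.90). With arsenite, the difference in granule enrichment between lines was called for 0 of 8 members, again with 0 at an unadjusted p under 0.05, where 0.00551% of genes were.

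With tetracycline alone at most 1 of 8 members was called in either line. In WT 0 of 8 were called (1 at an unadjusted p under 0.05), where 5.31% of genes were, and JUND was the nearest (log2 0.37, adjusted p = 0.072, 0.0431 by DESeq2). JUND was called without untreated replicate 3 (0.53) and JUN without tetracycline replicate 1 (-0.35). In WDM FOSL1 was lower, at 0.502, 0.832 and 1.01 CPM against 1.74, 2.43 and 1.84 CPM untreated (log2 -1.23, SE 0.33, adjusted p = 0.0262), where 3.23% of genes were lower. These values rest on 4, 9 and 19 counts, and the call was lost without any 1 of the 6 libraries (log2 -1.48 to -1.07, adjusted p = 0.0501 to 0.133). The difference of the tetracycline effect between lines was called for 0 of 8 members (2 at an unadjusted p under 0.05, FOSL1 and JUNB), where 0.018% of genes were.

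Each member's mean CPM was ordered over the 10 groups. CPM is relative to the library total, so the order does not show how much of an mRNA a fraction held. FOS, FOSB, JUN, JUND and ATF3 had their highest mean in WDM arsenite cytosol, and JUNB and FOSL1 in WT arsenite cytosol. For FOSB (20.7 CPM) and FOSL1 (8.34 CPM) that group overlapped the next, WDM arsenite granules (19.1 and 8.13 CPM). For FOS, both arsenite cytosol groups overlapped each other, the WT arsenite cytosol group overlapped the WDM arsenite granules, and a gap separated all 4 arsenite groups (lowest library 55.0 CPM) from the rest (highest library 7.45 CPM). FOSL2 was highest in the 2 arsenite granule groups (44.8 and 44.4 CPM), which overlapped each other, then in the 2 tetracycline granule groups (20.2 and 17.6 CPM), also overlapping, and lowest in the 6 cytosol groups (10.9 to 14.6 CPM), each of which overlapped its neighbour in the order. JUN and ATF3 were lowest in the tetracycline granule groups, at 124 and 26.2 CPM in WDM.

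Likeness of pattern between members is given as Pearson's r of log2 group means over the 10 groups, which share libraries and treatments and carry no test. FOS went with FOSB (0.977) and FOSL1 (0.964). JUN went with ATF3 (0.946), JUND (0.923) and JUNB (0.916). Between these, FOS was at 0.845 with JUNB, 0.842 with JUND, 0.821 with JUN and 0.764 with ATF3. FOSL2 had its highest values with FOSL1 (0.621), FOSB (0.598) and FOS (0.554), and was at 0.195 with JUN and -0.04 with ATF3. Among 15047 genes with a symbol outside the family, the nearest to FOS were RPL3L (0.972), NFKBIA (0.968), which encodes the NF-κB inhibitor, and EGR1 (0.967), an immediate-early zinc finger factor. EGR1 ranged from 1.49 to 323 CPM over the groups and was also the nearest to FOSL1 (0.962), followed by SNAI1 and TMEM202-AS1. RPL3L was scarce, at 0.3 to 3.1 CPM.

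The nearest genes to ATF3 were IER2 (0.985), another immediate-early gene, ZNF823 and NUDT19-DT. NUDT19-DT was also the nearest to JUN (0.974), and MTFR2 (0.948) was among the nearest 3. FOSL2 was nearest to PPFIA1 (0.996), CYREN (0.995) and ZNF132-DT (0.992), and PPFIA1 ranged from 76.5 to 241 CPM. FOSB was nearest to CEACAM22P, CDAN1 and WHAMMP2 (0.983 to 0.978), JUNB to ADPGK-AS1, BRD8 and ZNF565 (0.964 to 0.939), and JUND to PLK3, PIP5K1A and ZNF408 (0.956 to 0.952).

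Among other basic leucine zipper genes, many of them possible partners of AP-1 proteins, MAFF changed most with arsenite. Of 15 listed 12 were tested, and in cytosol arsenite raised 3 in WT and 3 in WDM and lowered 0 and 1, against tetracycline alone. Of all genes 13.7% and 14.1% rose and 15.4% and 14.8% fell there. The median log2 fold change was 0.14 and 0.17. MAFF, a small MAF protein, rose by log2 1.92 (SE 0.21) in WT and 2.11 (SE 0.23) in WDM. DDIT3, the stress factor also called CHOP, rose by 0.59 and 0.67, and ATF2, a JUN partner, by 0.32 and 0.35. In granules arsenite raised 6 of 12 in WT and 5 of 12 in WDM, where 16.5% and 18.7% of all genes rose. It lowered 0 in each, where 14.1% and 17.7% fell. MAFF led the rises (2.46 and 2.70), with MAFG at 1.02 and 1.75. ATF4, the factor that drives the integrated stress response, was lower in granules than in cytosol with tetracycline, by log2 -2.22 in WT and -1.96 in WDM, as was DDIT3 (-1.43 and -1.29).

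Among the kinases and promoter-bound factors upstream of AP-1, 6 of 20 were called with arsenite in WT cytosol, where 4838 of 16670 genes were. That is close to the share of genes in general. In WT granules 10 of 20 were called, where 5620 of 18366 genes were. All 20 listed genes were tested. Against tetracycline alone, arsenite raised 4 and lowered 2 in WT cytosol and raised 4 and lowered 0 in WDM cytosol, where 13.7% and 14.1% of all genes rose and 15.4% and 14.8% fell, with medians of -0.07 and 0.01. Against untreated cytosol it raised 4 and lowered 3 in WT, where 15.2% of all genes rose and 17.1% fell. It raised 6 and lowered 3 in WDM, where 19.0% rose and 20.0% fell. MEF2D, which acts at the JUN promoter, rose by log2 0.75 and 0.93 against tetracycline alone, and MAPK10, the JNK3 gene, by 1.00 and 0.65. ELK1, an SRF partner, fell by 0.36 on the log2 scale in WT. In granules 9 rose and 1 fell in WT, and 10 rose and 2 fell in WDM. Of all genes 16.5% and 18.7% rose there and 14.1% and 17.7% fell. MEF2D was at 0.87 and 1.61 and SRF, in WDM, at 1.08. Between fractions, MAPK3, the ERK1 gene, was lower in granules with tetracycline (log2 -1.74 and -1.68) and MAPK10 higher (3.19 and 2.63).

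Of 20 genes often given as AP-1 targets, 12 passed the filter in cytosol. Against tetracycline alone, arsenite raised 1 and lowered 1 of them in each line, where 13.7% of all genes rose and 15.4% fell in WT and 14.1% and 14.8% in WDM. MT2A, a metallothionein gene that metals and arsenite are also known to induce through other factors, rose by log2 0.47 and 0.56, and TIMP1, a protease inhibitor gene, fell by 0.67 and 0.62. The medians were 0.02 and -0.08. Against untreated cytosol 2 rose and 1 fell in WT, where 15.2% of all genes rose and 17.1% fell. In WDM 5 rose and 2 fell, where 19.0% of all genes rose and 20.0% fell. In granules, where 13 were tested, 5 rose and 1 fell in WT and 6 rose and 1 fell in WDM, where 16.5% and 18.7% of all genes rose and 14.1% and 17.7% fell. MT2A rose there by log2 1.57 and 1.67, whereas CXCL8, a chemokine gene, fell by 1.46 and 2.00. No target was called higher in granules than in cytosol in any of the 4 comparisons, where 35.0% to 39.5% of all genes were. With tetracycline 9 of 12 were lower in each line and with arsenite 8 of 12, where 35.3% to 36.2% of all genes were. TIMP1 led the lower targets (log2 -3.08 in WT and -2.70 in WDM with tetracycline).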

How the data were processed

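The authors deposited 1 table of raw read counts per gene, a column for each of the 30 libraries. Per the submitters' processing notes, Trimmomatic, STAR, Picard and featureCounts were used with GRCh38. Versions, strand setting and annotation release are not given in the sources used here. The members, gene lists and tests were chosen with earlier results of these data known.

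Counts were tested with edgeR 4.0.16 (R 4.3.3): filterByExpr (minimum count 10, minimum total 15), TMM factors, group-means model, robust quasi-likelihood F-test, Benjamini-Hochberg over all genes tested, called at adjusted p under 0.05. Cytosol (18 libraries, 16670 genes) and granules (12 libraries, 18366 genes) were fitted separately, and contrasts between fractions used the 24 tetracycline-treated libraries (18141 genes). All 8 members passed the filter in each fit, also without the arsenite libraries, and were tested in 24 comparisons, of which 17 set 2 groups against each other and 7 were interactions. Groups came from sample titles. CPM in the text is the count divided by the library total, times 1000000, given per library or as mean ± SD, whereas folds are TMM-scaled and the intervals are 95% intervals from the fit. Comparisons that share libraries are not independent.

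Named genes were the 8 members, up to 3 called genes with the largest change per list in comparisons of arsenite with tetracycline and of granule with cytosol, from which examples are given, and the 3 nearest genes to each member (log2 group-mean CPM + 0.5, at least 1 CPM in the highest group), of which 1 is not reported here. Gene positions and UTRs are from GENCODE v44, promoters from RefSeq (GRCh38.p14).

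The pairing of libraries by replicate number was checked by correlating their deviations from group means. Only for WDM arsenite granule and cytosol did all 3 pairs exceed 0.1 (0.35, 0.563 and 0.306). With the block, 6 of 8 members were called there, as without it. For WT arsenite granule and cytosol the values were lower (0.06, 0.197 and 0.23), but each library also matched its own number best, so pairing there stayed undecided. Alternatives were edgeR's RLE factors, library size alone, no filter, the replicate block, each library left out, a fit of the compared groups alone and DESeq2 1.42.0. The block in a fit of the 6 WDM arsenite libraries was added after seeing the data. The tests were run on simulated counts first. The labels name no molecular identifiers, so a count is not a number of molecules.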

Additional observations from a re-analysis of the deposited data

Results flagged for a closer look

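The effect of arsenite on the granule level differed from its effect on the cytosol level for 3 members in WT and 2 in WDM, by a test of the difference itself (edgeR interaction, adjusted p under 0.05). Of all genes 31.4% were called in WT and 24.2% in WDM, so for 8 members these counts were near the general share. The median over all genes was log2 -0.21 in WT and -0.17 in WDM. In WT the differences were log2 -1.36 for FOS, -1.89 for FOSB and 0.99 for FOSL2. In WDM they were log2 -1.39 for FOS and 1.01 for FOSL2, and FOSB there passed the threshold without the low-count filter and by DESeq2, but not by edgeR with the filter. For FOS the arsenite rise was larger in cytosol (30.4-fold against 12.6-fold in WT), and for FOSL2 it was present in granules and not detected in cytosol. With 3 libraries per group, single libraries were not tested as outliers.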

How the results depend on the processing

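Of 192 member values, 77 were called, and 61 of these kept their call in every alternative, the 7 arsenite calls in cytosol among them. Over 2647 recomputed values, 53 called ones were lost, 20 uncalled ones gained a call and 0 called ones changed direction, while 131 uncalled values changed sign. Leaving out 1 library gave 0 to 1 members called for tetracycline cytosol, arsenite cytosol, tetracycline granule and arsenite granule (WDM against WT) and for tetracycline against untreated in WT, 0 to 0 for the latter in WDM, 3 to 6 for tetracycline granule against cytosol in WT, and 1 to 3 for the arsenite change of enrichment in WDM. In a fit of only the groups compared, the count was 0 for tetracycline cytosol, WDM against WT, and 2 for tetracycline granule against cytosol in WT. Without the low-count filter it was 1 for arsenite cytosol, WDM against WT, and 1 for tetracycline against untreated in WT, where DESeq2 also gave 1. Beyond the smaller number of libraries in some fits, the cause was not tested. FOSB did not pass the filter in the fit of WT untreated and tetracycline cytosol alone.

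The replicate number used as a block moved no member count by over 1.5 times: 7 and 7 were called with arsenite in cytosol (WT, WDM), 8 and 8 in granules, and 6 for WDM arsenite granule against cytosol, also in the fit of the 6 libraries. It added FOSL2 in WDM against untreated (8 called) and FOSB in WT arsenite granule against cytosol (7 called). In that WT comparison pairing by number stayed undecided. Outside the arsenite comparisons of granule with cytosol, no pairing by number was shown.

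Over all genes, fitting only the groups compared called 5463 genes for the untreated lines (1631 in the full fit), 852 (2108) for the tetracycline lines, 220 (886) for tetracycline in WT, and 2737 (4838) and 1921 (4804) for arsenite in WT and WDM cytosol. Leaving out 1 library gave 2440 (without WT tetracycline replicate 3) to 7204 (without replicate 1) and 2490 to 5251 genes for arsenite in WT and WDM cytosol, 3157 to 5418 (5620 in the full fit) for arsenite in WT granules, 189 to 1766 and 422 to 771 (1050) for tetracycline in WT and WDM. Between the lines it gave 929 to 1212 untreated, 1209 to 4573 with tetracycline and 1094 to 2205 (1726) with arsenite in cytosol, and 570 to 1330 (1019) with tetracycline and 569 to 1719 (1460) with arsenite in granules. The shares of all genes printed beside the members move with these counts. Library size alone moved the median of all genes for arsenite in WT cytosol from -0.02 to 0.11, and the share of calls that were higher from 47.1% to 76.7% there, from 48.8% to 66.8% in WDM, from 47.1% to 64.3% and 48.7% to 58.9% against untreated, from 45.9% to 56.0% for the tetracycline lines, from 55.1% to 43.9% for tetracycline in WT and from 51.7% to 66.0% for the arsenite granule lines. Low counts limit FOSB and FOSL1, which had as few as 4 counts in a library.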
